A study of Mus musculus with 24 samples.

Results

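Mouse hip caps and embryonic metatarsals were compared 24 h after both had been held at 50 MPa of hydrostatic pressure, a load the study treats as injurious. The comparison is between 7 of the 24 libraries of the series. These are the 3 hip cap libraries H501, H503 and H504 and the 4 metatarsal libraries M501, M502, M503 and M504. They were chosen by tissue and pressure from the labels, and a further hip cap library, H502, was left out as it was by the study. The 7 control libraries of the same tissues at 0 MPa (hip caps HC1, HC2 and HC3, metatarsals MC1 to MC4) served to ask which differences between the tissues were also present without pressure and which were smaller or larger after it.

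Hip caps are the cartilage of the femoral head, taken from males of C57/BL6 at 4 weeks of age with no underlying bone included, and each library pooled the 2 hip caps of 1 mouse. Metatarsals came from E15 C57/BL6 embryos whose sex is given as unknown, with 6 bones pooled for each library. All explants were cultured for 24 h, pressurised or held at 0 MPa for 1 h at room temperature in a water-filled vessel, and returned to culture for 24 h before total RNA was depleted of ribosomal RNA and sequenced. Hip caps were kept in DMEM with GlutaMAX, and metatarsals in αMEM with bovine serum albumin, β-glycerophosphate and ascorbic acid phosphate. Tissue, age and medium therefore changed together between the groups and cannot be told apart. Sex was not matched either, with male hip caps and embryos of unknown sex, and its part in the differences was not tested.

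Articular cartilage covers the end of a bone and is held by chondrocytes in a lasting matrix of type II collagen and aggrecan. In the growth plate, chondrocytes pass through proliferation and hypertrophy, make type X collagen and mineral, and give way to bone. An embryonic metatarsal is a whole cartilage rudiment with its perichondrium, before most of that sequence has run, while the femoral head of a young mouse still holds a centre in which chondrocytes become hypertrophic. After an injurious load, cartilage cells are known to release chemokines, prostaglandins and the proteases that cut collagen and aggrecan.

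The deposited gene counts summed to 7565163 to 14548309 per library at 50 MPa, and 1 gene without a symbol, ENSMUSG00000119584, held 8.62% to 32.4% of them. Library type came from the labels, and sequencing run was read from a published colour strip and is less certain. They were not spread evenly over the tissues. The 3 hip caps and M504 were unstranded libraries of the first run, and M501, M502 and M503 were stranded libraries of the second. Among controls, HC3 was unstranded and HC1, HC2 and MC1 were stranded, all of the first run. MC2, MC3 and MC4 were stranded libraries of the second. The fit removes run and library type with terms estimated from 22 libraries of the series. M504 thus carried a weight of -0.76 in the difference at 50 MPa against -0.08 for each of M501, M502 and M503. Controls entered that difference too, at -0.24 for HC3 and MC1, 0.12 for HC1 and HC2 and 0.08 for MC2, MC3 and MC4. In the control difference MC1 carried -0.64 and M504 -0.36, and in the change HC3 carried -0.6. Across log2 CPM, which are counts scaled to a common library total, M504 correlated at 0.936 to 0.938 with the other metatarsals, which correlated at 0.980 to 0.982 among themselves, and at 0.839 to 0.889 with the hip caps. M504 also held 1249 CPM of Xist and 0.686 CPM of Ddx3y, a Y-linked gene, against 943, 1034 and 3.79 CPM of Xist and 34.3, 36.9 and 64.2 CPM of Ddx3y in M501, M502 and M503. Values are CPM scaled by the trimmed mean of M values (TMM), not divided by gene length, so they compare libraries and not genes. CPM and their sums are not corrected for run or library type. In whole tissue, fewer cells of a type and less RNA per cell cannot be told apart.

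Of 21283 genes tested with edgeR's quasi-likelihood test at 50 MPa, 2253 were higher in hip caps (10.6%) and 2099 were lower (9.86%) at a Benjamini-Hochberg adjusted p of at most 0.05. In controls the same test called 3113 genes higher (14.6%) and 3488 lower (16.4%). The test of the change itself, which subtracts the control difference from the difference at 50 MPa, called 94 genes (0.442%). Among the 21283 genes, the tissues did not overlap in CPM at 50 MPa in 3922 with hip caps higher and 4560 with hip caps lower. These shares and counts are the background against which each gene group below is set.

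Of the 4352 genes called at 50 MPa, 3264 (75.0%) were also called in the same direction in controls, 1668 of them higher and 1596 lower, and 3 were called in opposite directions. Those 3264 were 49.4% of the 6601 genes called in controls. Both differences share the run and library terms of 1 fit, so they were not estimated independently. The median absolute log2 fold change over all genes tested was 0.53 at 50 MPa and 0.70 in controls, and 59.8% of genes had the smaller value at 50 MPa. The share with the smaller value at 50 MPa depended on which call selected the genes, at 45.4% of those called at 50 MPa, 79.8% of those called in controls and 60.2% of those called in both. A call made in controls and not at 50 MPa was seldom a called change: of 3334 such genes, 57 had passed the test of the change, as had 21 of the 1085 called at 50 MPa alone.

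**Figure D1:**
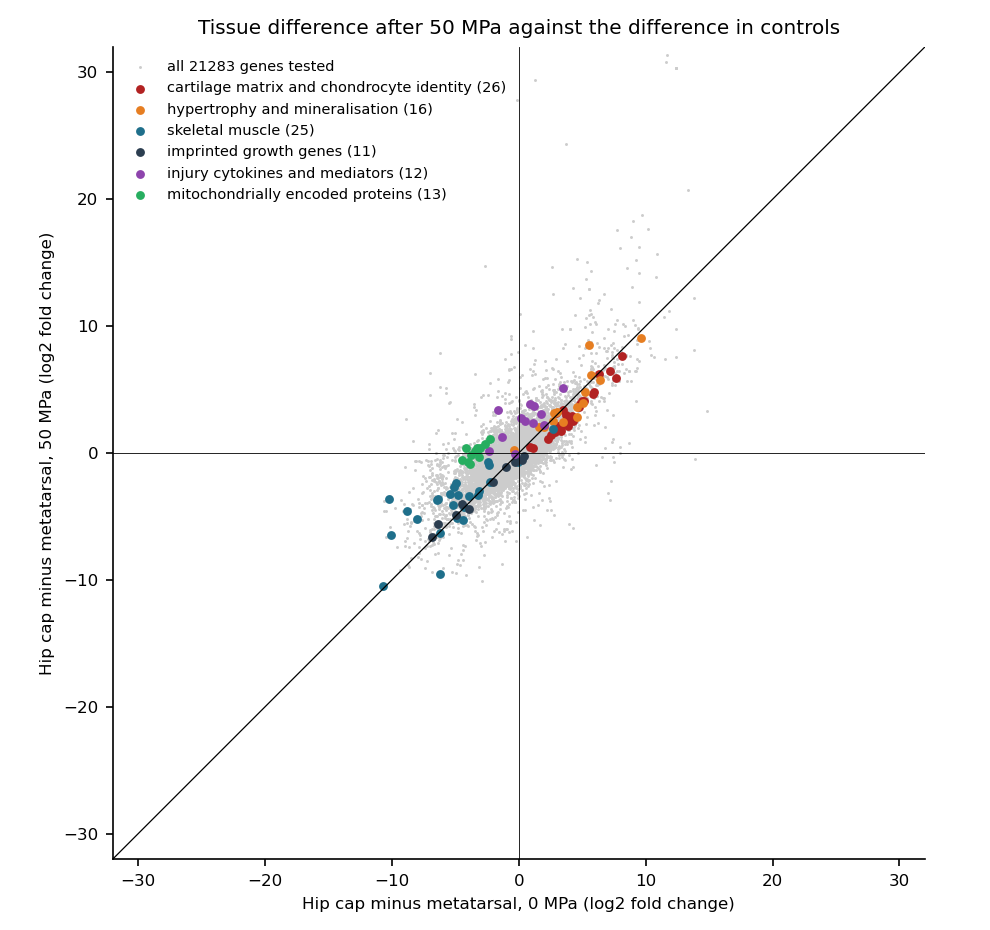
Each point is 1 of the 21283 genes tested, with the log2 fold change of hip caps over metatarsals in controls on the horizontal axis and at 50 MPa on the vertical axis. Coloured points are the members of 6 gene groups described in the text: 25 of 26 cartilage genes lie on the side of the diagonal nearer to 0 at 50 MPa, while injury genes and mitochondrially encoded genes lie above it.

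When the 3 hip caps were set against M504 alone, the only metatarsal library of their run and library type, all 4239 genes called at 50 MPa that could be tested there had the same direction. That agreement is not independent, because the same 4 libraries carry most of the weight in the fit with all libraries. Called genes fell to 253 higher and 323 lower with M504 as the only metatarsal, and to 635 higher and 544 lower when M504 was left out. The edgeR count for the change of the tissue difference with 50 MPa was less steady still, from 3 genes without HC3 to 1749 without HC2.

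The 12 genes with the highest fold changes at 50 MPa included products of cartilage, of hypertrophic cells and of bone-forming or bone-resorbing cells. Type X collagen, Col10a1 (ENSMUSG00000039462), is the collagen of hypertrophic cartilage and reached 4722, 4677 and 11448 CPM in H501, H503 and H504 against 1.06, 1.34, 1.5 and 22.7 CPM in M501 to M504. The hip caps lay far above every metatarsal, with a log2 fold change of 9.10 ± 2.13 (SE) and an edgeR adjusted p of 0.00644. The collagenase Mmp13 (ENSMUSG00000050578) stood at 1147, 853 and 1698 CPM in hip caps and at 9.12, 4.36, 6.37 and 3.96 CPM in metatarsals, a log2 fold change of 8.54 ± 0.83 (SE) with an edgeR adjusted p of 1.36e-06. Clec3a, a cartilage C-type lectin, held 291, 245 and 250 CPM in hip caps and at most 1.83 CPM in metatarsals. Sost, the WNT antagonist sclerostin of osteocytes, held 15.9, 16 and 43.6 CPM in hip caps and at most 0.356 CPM in metatarsals.

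Acp5, the tartrate-resistant acid phosphatase of osteoclasts, held 418, 135 and 587 CPM in hip caps, and H503 was the lowest of the 3. The metatarsals held 3.43 to 3.66 CPM of it, and the log2 fold change was 7.10 ± 0.84 (SE). Gpx3, a secreted glutathione peroxidase, held 438, 350 and 956 CPM against 1.16 to 4.88 CPM. Coagulation factor F5 held 128, 128 and 116 CPM against 0.0601 to 0.686 CPM, and corneodesmosin, Cdsn, held 71.2, 60.7 and 140 CPM against 0.178 to 0.838 CPM. The fatty acid receptor Ffar4 had 9.39, 5.55 and 18 CPM in hip caps and was at 0 in 3 of the 4 metatarsals.

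The remaining highest genes rested on few counts or on 1 hip cap. Fxyd3, a regulator of the sodium pump, had 2 counts over all metatarsals, so that the ratio of hip caps to metatarsals was 582 with a 95% counting interval of 160 to 4820. Serpina1b, an antitrypsin gene, had 2 counts as well and a ratio of 1276 (352 to 10549), but it belongs to a family of near-identical copies whose reads an estimator can split, and its value is uncertain. Adipsin, Cfd, held 5.38, 68.4 and 0.309 CPM in H501, H503 and H504, so H503 alone held most of it, and H504 lay just above M504 at 0.229 CPM.

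The 12 genes with the lowest fold changes included those of embryonic muscle, limb and mesenchyme. Pleiotrophin, Ptn (ENSMUSG00000029838), a heparin-binding growth factor of fetal tissue, held 2.00, 4.99 and 1.24 CPM in hip caps and 380, 398, 480 and 409 CPM in metatarsals. Its log2 fold change was -7.33 ± 0.40 (SE) with an edgeR adjusted p of 2.67e-10. Dlk1, an imprinted NOTCH-like ligand, held 12.3, 8.39 and 7.74 CPM against 719, 509, 712 and 877 CPM, a log2 fold change of -6.64 ± 0.47 (SE). Fibrillin 2, Fbn2, the fibrillin of embryonic microfibrils, held 5.27, 7.42 and 3.09 CPM against 482, 492, 405 and 571 CPM, and its microfibril partner Mfap4 held 0.316, 2.43 and 1.24 CPM against 162 to 185 CPM.

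Both microfibril genes were near absent from hip caps and plentiful in metatarsals. Keratocan, Kera, was at most 0.347 CPM in hip caps and at least 40.3 CPM in metatarsals. Igfbp2 was at most 0.485 CPM against at least 18.3 CPM, the lipoprotein receptor gene Lrp1b at most 0.277 CPM against at least 16.2 CPM, and AW551984 at most 0.555 CPM against at least 30.9 CPM. The myogenic factor Myog, the cardiac actin Actc1 and the digit patterning genes Hoxd12 and Evx2, which complete the 12, are described with their groups.

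**Figure D2:**
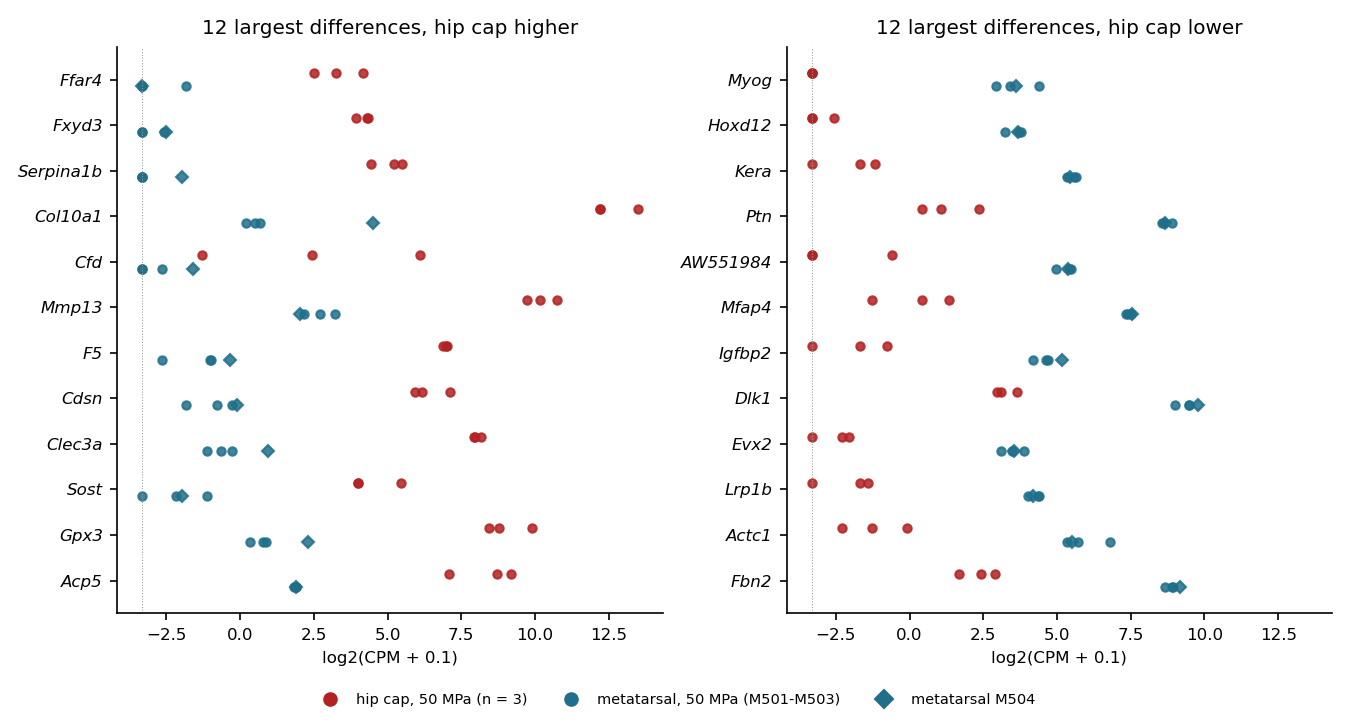
Each row is 1 of the 12 highest or 12 lowest genes at 50 MPa and each point is 1 library, on an axis of log2(CPM + 0.1), with a diamond for M504. Hip cap and metatarsal libraries of each row do not overlap, because the rule that chose the genes required it. Cfd has the widest spread of the hip caps, from 0.309 to 68.4 CPM.

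Cartilage matrix genes were higher in hip caps at 50 MPa as a group. Of 26 tested, 24 were higher and 0 lower, with a median log2 fold change of 2.97, against 10.6% higher and a median of -0.01 over all genes. Type II collagen, Col2a1, held 20943, 24973 and 21320 CPM in hip caps and 1522, 1045, 1126 and 2096 CPM in metatarsals, and every hip cap was far above every metatarsal. Its log2 fold change was 3.62 ± 0.59 (SE) with an edgeR adjusted p of 0.000137.

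Aggrecan, Acan, the large proteoglycan that holds water in cartilage, stood at 4331, 3734 and 6066 CPM against 300, 227, 235 and 355 CPM. Chad, which binds collagen at the cell surface, held 1089, 945 and 1299 CPM against 4.69 to 16.3 CPM, a log2 fold change of 6.45 ± 0.64 (SE). Snorc, a small membrane proteoglycan, held 338, 273 and 670 CPM against 5.41 to 6.93 CPM, and Comp, which bridges collagen fibrils, held 2062, 2058 and 1545 CPM against 49.9 to 83.5 CPM. In all of these the groups stood apart by a wide margin. The transcription factor Sox9, which drives the chondrocyte programme, held 297, 308 and 481 CPM against 102 to 147 CPM, a log2 fold change of 1.42 ± 0.32 (SE). Its partners Sox5 and Sox6 were the 2 members not called, with log2 fold changes of 0.41 ± 0.29 (SE) and 0.48 ± 0.26 (SE).

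The cartilage matrix difference had the larger size in controls, where 26 of 26 genes were higher and the median was 3.86, and 25 of 26 members had the smaller absolute fold change at 50 MPa. No member passed edgeR's test of the change, and 14 had an unadjusted p under 0.05, all of them towards a smaller difference, against 19% of all genes. The summed level of the group was 92060, 58476 and 84075 CPM in control hip caps and 39655, 45038 and 40279 CPM at 50 MPa, while the metatarsals stayed between 2833 and 6542 CPM in controls and between 3515 and 5094 CPM at 50 MPa. Hip caps at 50 MPa thus lay below every control hip cap and above every metatarsal, but HC3 was the only control hip cap of their library type. Within the first run, the median was 2.96 for the hip caps against M504, all unstranded, on the log2 scale with 0.5 CPM added. It was 4.04 for HC1 and HC2 against MC1, all stranded. These medians differ in library type as well as in pressure, with M504 and MC1 as the only metatarsals. The same holds for every comparison within the first run below. Without M504, 13 of the 26 passed the edgeR threshold at 50 MPa.

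Genes that build the sugar chains of proteoglycans were divided. Of 14, 8 were higher in hip caps, 1 was lower and the median was 0.79, against 9 higher, 1 lower and 1.08 in controls. The chondroitin sulfotransferase Chst11 held 356, 341 and 327 CPM in hip caps and 16.7 to 25.2 CPM in metatarsals, a log2 fold change of 4.17 ± 0.44 (SE). Xylosyltransferase Xylt1, which starts the chain, held 439, 435 and 548 CPM against 62.1 to 74.4 CPM. The sulfate transporter Slc26a2 held 202, 226 and 197 CPM against 35.9 to 44.5 CPM. These enzymes and this transporter were well apart, and the other sulfotransferase on the list, Chst3, went the other way with 6.86, 7.14 and 4.33 CPM in hip caps and 15.9 to 16.7 CPM in metatarsals. The median of this group turned to -0.17 when libraries were scaled by their totals only, beside -0.90 over all genes.

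Genes of hypertrophy and mineralisation were higher in hip caps in 15 of 16 cases, with a median of 3.18, and in 15 of 16 in controls, with a median of 4.06. Beside Col10a1 and Mmp13, osteopontin, Spp1, held 3284, 2600 and 3958 CPM in hip caps and 25.8 to 52.4 CPM in metatarsals, a log2 fold change of 6.12 ± 0.42 (SE) with an edgeR adjusted p of 4.49e-09. Indian hedgehog, Ihh, which prehypertrophic chondrocytes secrete, held 53.2, 37.8 and 111 CPM against 0.712 to 1.37 CPM. Tissue non-specific alkaline phosphatase, Alpl, which frees phosphate for mineral, held 405, 287 and 654 CPM against 24.2 to 36.1 CPM. H504 was the highest hip cap in each of these 3 genes. The factors Runx2 and Sp7 had log2 fold changes of 2.53 ± 0.26 (SE) and 2.47 ± 0.32 (SE), and the angiogenic factor Vegfa was not called, at 182, 163 and 355 CPM against 174 to 244 CPM.

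Against M504 alone the median of this group was 2.95 in unstranded libraries, and 4.19 for HC1 and HC2 against MC1 in stranded libraries. Changes within the group ran both ways and none passed the edgeR test, with an unadjusted p under 0.05 in 4: 9 of 16 had the smaller absolute fold change at 50 MPa, among them bone sialoprotein, Ibsp, whose log2 fold change was 2.81 at 50 MPa and 4.61 in controls, while Mmp13 was at 8.54 and 5.51. The change for Mmp13 was 3.03 ± 0.72 (SE) with an edgeR adjusted p of 0.0648. Control hip caps held 322, 686 and 370 CPM of Mmp13, each below the lowest hip cap at 50 MPa, and control metatarsals held 6.64 to 36.1 CPM.

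The stretch before the transcription start of Mmp13 is shown because this gene belonged both to the hypertrophy group and to the proteases, and it held a letter match for each of 2 factors tied to those roles. It is the 200 bases before the start in RefSeq's annotation of GRCm38.p6, at chr9:7272314-7272513 on the plus strand. Capitals mark AACCACA, a RUNX motif, and TGANTCA, an AP-1 motif, in that order.
Mmp13: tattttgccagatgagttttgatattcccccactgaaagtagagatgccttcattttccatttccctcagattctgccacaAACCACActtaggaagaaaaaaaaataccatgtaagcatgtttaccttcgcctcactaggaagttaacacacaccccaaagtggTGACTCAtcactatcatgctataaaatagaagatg
Motifs were searched on both strands of the window from 250 bases before to 50 bases after each start. AACCACA was present for 4 of the 13 hypertrophy genes with a window (30.8%), namely Dmp1, Mmp13, Runx2 and Spp1, and for 6.09% of 27025 genes. A letter match describes the sequence and is not a bound site.

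Markers of osteoblasts and osteocytes followed the same order, with 7 of 9 higher, 1 lower and a median of 3.14 at 50 MPa against 4.61 in controls. Osteocalcin, Bglap, held 2.32, 2.36 and 6.50 CPM in hip caps and at most 0.132 CPM in metatarsals, and the matrix phosphoglycoprotein Mepe held 3.80, 2.22 and 3.09 CPM against at most 0.178 CPM. Ifitm5, an early osteoblast gene, was the one lower member, at 0.619 to 1.27 CPM against 4.76 to 6.41 CPM. Of these 9 genes, 5 also belong to the hypertrophy group or to the highest genes, so the groups are not separate evidence. The part of bone-forming cells in the mineralisation values was not tested.

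Joint surface genes were split between the tissues, with 4 of 10 higher in hip caps and 2 lower, against 5 and 3 in controls. Lubricin, Prg4, which coats the articular surface, held 4778, 4262 and 1751 CPM in hip caps, lowest in H504, and 18.1, 23.3, 22.4 and 61.3 CPM in metatarsals. Its log2 fold change was 6.67 ± 1.40 (SE) with an edgeR adjusted p of 0.00279. Vitrin, Vit, held 87.4, 74.7 and 42.7 CPM against 1.52 to 2.36 CPM, and clusterin, Clu, held 238, 206 and 121 CPM against 21.5 to 27.8 CPM. The interzone gene Gdf5, which marks the joint before it forms, was lower in hip caps, at 3.16, 1.73 and 8.05 CPM against 13.8 to 19.7 CPM. Prg4, Vit and Clu thus differed in the opposite direction to Gdf5. Dkk3 was the other lower member, with a log2 fold change of -3.46 ± 0.39 (SE). Erg and Creb5 were not called, with log2 fold changes of 0.26 and -0.50. The median of the group was 0.67 at 50 MPa and 1.58 in controls. With library sizes alone it was -0.30 at 50 MPa, beside -0.90 over all genes.

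Secreted WNT antagonists and the R-spondins, which strengthen WNT signals, also divided by member and not by role. Of 15, 8 were higher in hip caps and 5 were lower at 50 MPa. The antagonist Frzb held 433, 392 and 1011 CPM in hip caps and 2.63 to 6.78 CPM in metatarsals, a log2 fold change of 6.80 ± 0.55 (SE). Wif1 held 166, 124 and 117 CPM against 1.32 to 3.89 CPM, and Sfrp5 held 64.9, 65.9 and 93.8 CPM against 1.14 to 2.98 CPM. Their relatives Sfrp2 and Dkk2 were the reverse. Sfrp2 held 1.69, 2.57 and 1.55 CPM in hip caps and 57.5, 67.7, 73.3 and 97.4 CPM in metatarsals, a log2 fold change of -5.60 ± 0.47 (SE). Dkk2 held 0.844, 3.95 and 0.309 CPM against 39.1 to 41.8 CPM. Among the R-spondins, Rspo2 was lower in hip caps, at no more than 0.633 CPM against 10.7 to 15.1 CPM, and Rspo4 had 3 counts over all metatarsals and a ratio of 76.1 (25.2 to 376). None of the 15 had an unadjusted p under 0.05 in the test of the change.

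Growth plate signals were higher in hip caps in 12 of 22 cases and lower in 5, with a median of 1.14 at 50 MPa and 1.37 in controls. The parathyroid hormone receptor Pth1r, which slows hypertrophy, held 334, 266 and 472 CPM in hip caps and 30.6 to 43.4 CPM in metatarsals, a log2 fold change of 3.35 ± 0.38 (SE). Its ligand Pthlh held 10.1, 8.87 and 10.8 CPM against 2.21 to 4.56 CPM, and the growth-restraining receptor Fgfr3 held 289, 261 and 314 CPM against 26.3 to 41.3 CPM. The insulin-like growth factor Igf1 held 8.33, 15.7 and 5.26 CPM in hip caps and 92.2, 93.4, 124 and 64.4 CPM in metatarsals, a log2 fold change of -2.59 ± 0.49 (SE) at 50 MPa and of -4.94 ± 0.52 (SE) in controls. The edgeR adjusted p of that change was 0.0745. The binding proteins Igfbp5 and Igfbp3 were lower in hip caps as well, at 138, 99.6 and 111 CPM against 605 to 994 CPM for Igfbp5 and at 17.8, 20.6 and 12.4 CPM against 64.2 to 88.4 CPM for Igfbp3. The receptor Igf1r was not called, at 205, 186 and 301 CPM in hip caps and 232 to 267 CPM in metatarsals, with an edgeR adjusted p of 0.996. With library sizes alone 5 of the 22 growth plate genes were higher and 8 lower, and the median was 0.18. Over all 21283 genes that scaling gave 542 higher, 6577 lower and a median of -0.90.

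Genes of fetal and perichondrial mesenchyme were lower in hip caps in 16 of 20 cases and higher in 2, with a median of -2.48 at 50 MPa, and lower in 16 with a median of -3.37 in controls. The receptor Pdgfra held 81.8, 105 and 81.1 CPM in hip caps and 513 to 568 CPM in metatarsals, a log2 fold change of -2.50 ± 0.24 (SE). Type III collagen, Col3a1, held 312, 442 and 139 CPM against 1610 to 2388 CPM, and type I collagen, Col1a1, held 1072, 662 and 724 CPM against 3287 to 3957 CPM. The perichondrial growth factor Fgf10 held 0.633, 1.87 and 0 CPM against 11.9 to 15.6 CPM at 50 MPa, and control hip caps had no count of it, which puts them at least 25-fold lower than control metatarsals with a floor of 3 counts per library. Decorin, Dcn, and tenascin C, Tnc, were the higher members, with 1235, 1288 and 729 CPM of Dcn against 124 to 180 CPM. Without M504, 5 of the 20 were lower at the edgeR threshold.

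Limb patterning genes were split. Of 24, 8 were higher in hip caps and 11 lower at 50 MPa, as many as in controls. The genes of the far end of the limb were low in hip caps: Hoxd13 held 0.738, 1.18 and 0 CPM in hip caps and 58.0 to 76.3 CPM in metatarsals, a log2 fold change of -6.15 ± 0.59 (SE). Hoxa13 held 0.139 to 1.55 CPM against 23.2 to 26.8 CPM. Hoxd12 had 1 count over all hip caps and a metatarsal to hip cap ratio of 330 (59.1 to 13048), and Evx2, its neighbour, had 3 counts and a ratio of 102 (34.7 to 495).

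Several other members lay the other way. Hoxc10 held 15.8, 15.4 and 30.6 CPM in hip caps and 0.661 to 1.38 CPM in metatarsals, a log2 fold change of 4.99 ± 0.58 (SE), and Hoxc8 held 17.2, 18.7 and 12.1 CPM against 0.533 to 1.92 CPM. The cofactors Meis1 and Meis2, which mark the proximal limb, had log2 fold changes of 2.33 ± 0.32 (SE) and 2.67 ± 0.38 (SE). The hindlimb factors Pitx1 and Tbx4 were lower in hip caps, with log2 fold changes of -2.48 ± 0.31 (SE) and -3.34 ± 0.24 (SE). None of the 24 was called by edgeR in the test of the change, where 4 had an unadjusted p under 0.05 and the median was -0.23.

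Imprinted growth genes were lower in hip caps in 9 of 11 cases at 50 MPa and in 7 in controls, with medians of -2.31 and -2.06. Insulin-like growth factor 2, Igf2, held 61.9, 66.3 and 111 CPM in hip caps and 3719, 3286, 3582 and 3762 CPM in metatarsals, a log2 fold change of -5.61 ± 0.30 (SE) with an edgeR adjusted p of 2.55e-10. The noncoding RNA H19 from the same locus held 313, 437 and 417 CPM against 5720 to 9048 CPM. Mest held 26.2, 29.1 and 18.6 CPM against 519 to 615 CPM, and the cell cycle inhibitor Cdkn1c held 20.7, 23.2 and 75.2 CPM against 542 to 713 CPM. Each of the 4 was far lower in every hip cap than in any metatarsal. The smaller absolute fold change was the one at 50 MPa in 5 of 11 in the fit, beside 59.8% of all genes. Within the first run it was so in 4 of 11, beside 61.3% of all genes. The medians there were -2.25 at 50 MPa (unstranded) and -2.15 in controls (stranded).

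Skeletal muscle genes were lower in hip caps in 19 of 25 cases and higher in 1, with a median of -3.60, or -3.37 when genes without a count in hip caps were set at their bound. In controls 22 were lower and the median was -4.91, or -4.78 at the bound. Myog, which triggers muscle differentiation, had no count in any hip cap and 10.4, 7.61, 20.9 and 12 CPM in metatarsals, at least 26.2-fold lower with a floor of 3 counts per library. Myod1 had none either and was at least 15.4-fold lower. The giant sarcomere protein Ttn held 22.7, 35.1 and 34.7 CPM in hip caps and 663, 586, 1240 and 291 CPM in metatarsals, and embryonic myosin Myh3 held 1.37, 0.693 and 2.17 CPM against 47.5 to 158 CPM. Actc1 held 0.105, 0.832 and 0.309 CPM against 40.4 to 112 CPM.

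Among metatarsals M503 was the highest and M504 the lowest in summed muscle level, at 1070, 912, 2078 and 596 CPM for M501 to M504, against 65.2 to 91.9 CPM in hip caps. Control metatarsals ranged from 1283 to 3115 CPM. Ttn was the member whose difference changed at the edgeR threshold, with a log2 fold change of -3.60 at 50 MPa and -6.36 in controls, a change of 2.76 ± 0.52 (SE) with an adjusted p of 0.0397. No muscle gene passed that test without M504, without batch terms or with library sizes alone. The 1 muscle gene higher in hip caps was fast troponin Tnni2, at 17.5, 20.6 and 26.6 CPM in hip caps and 5.12 to 12.6 CPM in metatarsals. Without M504, 5 of the 25 were lower at the edgeR threshold. The part of muscle tissue in the other differences was not tested.

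The promoters of the acetylcholine receptor subunit Chrna1 and of desmin, Des, are shown because they carry the E-box that myogenic factors such as Myog and Myod1 bind and because both genes were lower in hip caps. Chrna1 held 0.105, 0.901 and 0 CPM against 7.47 to 14.8 CPM, and Des held 0.422, 0.832 and 0 CPM against 13.0 to 26.4 CPM. The stretches are the 200 bases before the start in RefSeq's GRCm38.p6, at chr2:73580339-73580538 on the minus strand and chr1:75360092-75360291 on the plus strand, with capitals on CAGCTG.
Chrna1: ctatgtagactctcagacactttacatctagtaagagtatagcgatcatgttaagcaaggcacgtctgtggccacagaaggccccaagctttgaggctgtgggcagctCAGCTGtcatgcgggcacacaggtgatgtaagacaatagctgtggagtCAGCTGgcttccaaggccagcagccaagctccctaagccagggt
Des: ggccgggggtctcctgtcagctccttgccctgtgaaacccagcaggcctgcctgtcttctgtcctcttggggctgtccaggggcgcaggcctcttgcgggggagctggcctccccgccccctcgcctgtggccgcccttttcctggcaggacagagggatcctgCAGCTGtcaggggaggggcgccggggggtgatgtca
CAGCTG was found for 9 of the 21 muscle genes with a window (42.9%) and for 18.29% of 27025 genes. Acta1, Ckm and Mybpc1, among those 9, were not called at 50 MPa.

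Nerve and Schwann cell genes showed 6 of 14 lower in hip caps and 0 higher, with a median of -2.01 at 50 MPa and -2.57 in controls. The glial receptor Erbb3 held 0.738, 1.04 and 1.55 CPM in hip caps and 4.76 to 9.85 CPM in metatarsals, a log2 fold change of -2.93 ± 0.38 (SE).

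**Figure D3:**
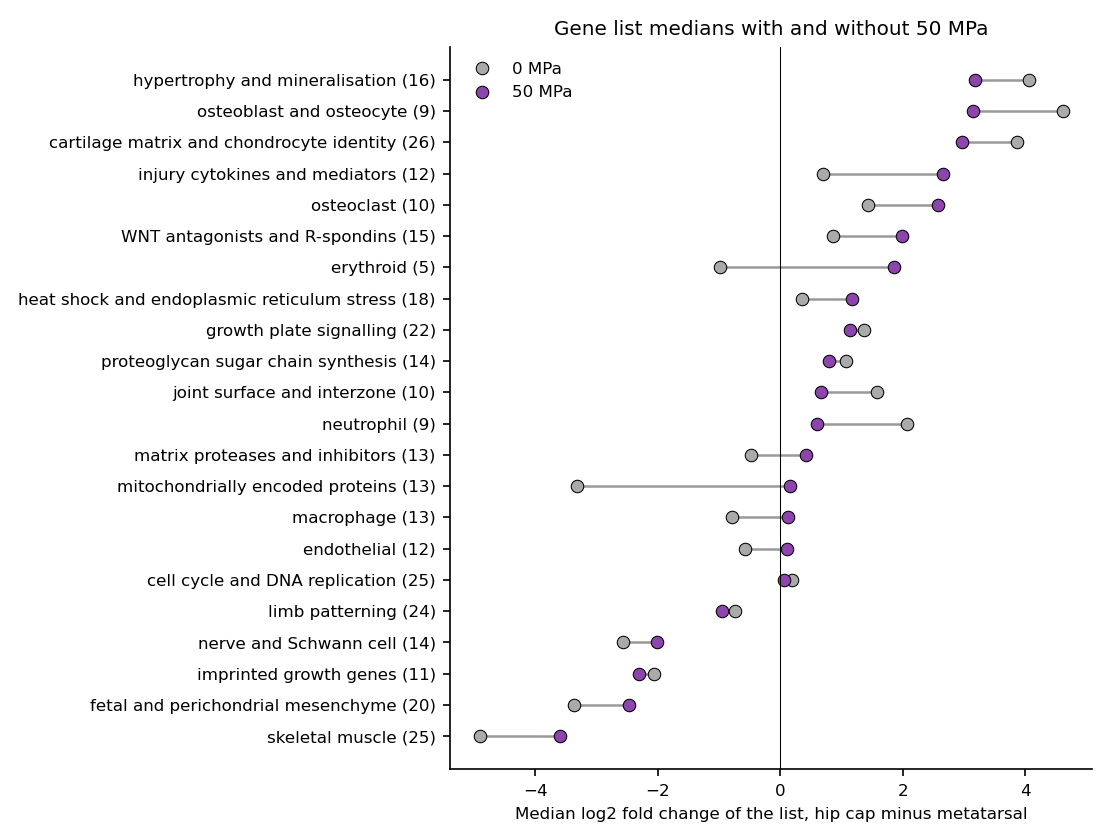
Each row is 1 gene group, with its median log2 fold change of hip caps over metatarsals in controls and at 50 MPa. Cartilage, hypertrophy and bone markers lie nearer to 0 at 50 MPa than in controls, and injury mediators move from 0.70 to 2.65.

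Injury cytokines and mediators stood further apart at 50 MPa than in controls. Of 12 tested, 9 were higher in hip caps and 0 lower at 50 MPa with a median of 2.65, against 3 higher, 1 lower and 0.70 in controls. Ptgs2, the inducible cyclooxygenase, held 67.9, 91.2 and 143 CPM in hip caps and 4.23, 2.94, 2.40 and 3.20 CPM in metatarsals, a log2 fold change of 5.16 ± 0.54 (SE) with an edgeR adjusted p of 1.76e-06. The neutrophil chemokine Cxcl1 held 40.0, 75.1 and 40.5 CPM against 3.17, 3.70, 5.47 and 4.27 CPM, a log2 fold change of 3.68 ± 0.53 (SE). The monocyte chemokine Ccl2 held 53.4, 53 and 50.8 CPM against 9.19, 9.48, 11.8 and 9.83 CPM. All 3 hip caps lay above all 4 metatarsals in each of the 3 genes, as they did in 3922 of the 21283 genes tested.

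Lower in level, the cytokine Il11 held 3.06, 9.50 and 6.19 CPM against 0.305 to 0.859 CPM, and Il1b held 4.96, 7.42 and 8.05 CPM against 0.330 to 0.990 CPM. The nitric oxide synthase Nos2 held 50.4, 33.5 and 23.2 CPM against 6.13 to 7.31 CPM and was nearly as different in controls, with log2 fold changes of 2.23 ± 0.53 (SE) and 2.02 ± 0.49 (SE). Tnf, Cxcl5 and Ccl7 were not called, and their log2 fold changes were -0.11, 0.12 and 1.24. Il6 was too low to test, with 92 counts in H503 and at most 4 in the other 6 libraries.

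In the test of the change, 9 of the 12 had an unadjusted p under 0.05, all towards a larger hip cap excess, against 19% of all genes, and none passed the edgeR threshold. Ccl2 came to a change of 2.02 ± 0.45 (SE) with an edgeR adjusted p of 0.0512, and Cxcl1 to 2.44 ± 0.54 (SE) with an adjusted p of 0.0514. The summed level was 87.5, 98.5 and 102 CPM in control hip caps and 256, 320 and 294 CPM at 50 MPa, with no overlap, while metatarsals held 22.9 to 53.7 CPM in controls and 37.8 to 51 CPM at 50 MPa. Within the first run the medians were 2.25 at 50 MPa (unstranded) and 0.34 in controls (stranded). Leaving out H504 gave 4 called changes and leaving out HC2 gave 4, whereas leaving out M504 gave 0 and brought the higher calls at 50 MPa to 4. Over all genes, 300 positive and 330 negative changes of 22426 were called without H504. Without HC2 they were 1090 and 659 of 22390, and without M504 8 and 2 of 21113.

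Promoters of Cxcl1, Cxcl2 and Il11 are shown because they hold the motifs of NF-kB and AP-1, factors known to drive injury genes, and because all 3 genes were higher in hip caps. Capitals mark the NF-kB motif, which is GGG, any 2 bases and TTTCC, in Cxcl1 (chr5:90891045-90891244, plus strand) and Cxcl2 (chr5:90903699-90903898, plus strand), read on either strand, and TGANTCA, the AP-1 motif, in Il11 (chr7:4778142-4778341, minus strand). Each line is the 200 bases before the start from RefSeq's GRCm38.p6.
Cxcl1: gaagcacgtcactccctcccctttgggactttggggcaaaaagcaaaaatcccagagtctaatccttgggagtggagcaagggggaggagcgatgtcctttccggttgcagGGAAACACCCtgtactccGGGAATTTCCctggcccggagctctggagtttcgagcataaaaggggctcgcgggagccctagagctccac
Cxcl2: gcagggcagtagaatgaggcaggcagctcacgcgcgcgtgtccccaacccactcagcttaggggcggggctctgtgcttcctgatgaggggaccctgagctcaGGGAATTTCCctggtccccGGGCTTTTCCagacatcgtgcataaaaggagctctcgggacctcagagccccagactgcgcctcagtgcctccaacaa
Il11: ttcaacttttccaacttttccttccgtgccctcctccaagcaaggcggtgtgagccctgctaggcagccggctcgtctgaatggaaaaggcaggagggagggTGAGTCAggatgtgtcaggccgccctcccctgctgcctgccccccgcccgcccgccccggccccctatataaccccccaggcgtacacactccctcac
The NF-kB letters were found for 3 of the 9 injury genes with a window (33.3%) and for 1.89% of 27025 genes, and the AP-1 letters for 4 of 9 (44.4%) and for 8.97%. Il6, which was not tested, counts in both.

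Matrix proteases were divided between tissues, with 6 of 13 higher in hip caps and 4 lower both at 50 MPa and in controls. Stromelysin, Mmp3, held 512, 952 and 208 CPM in hip caps and 12.6 to 25.2 CPM in metatarsals, a log2 fold change of 5.42 ± 0.69 (SE). The gelatinase Mmp9 held 666, 301 and 912 CPM against 14.6 to 21.3 CPM. Their inhibitor Timp1 held 83.9, 92.8 and 61.6 CPM against 5.97 to 13.6 CPM. The other metalloproteinases, Mmp2 and the membrane-bound Mmp14, were lower in hip caps, at 82.6 to 127 CPM against 369 to 426 CPM and at 120 to 149 CPM against 321 to 394 CPM. The aggrecanases Adamts4 and Adamts5 were not called at 50 MPa, with log2 fold changes of 0.02 ± 0.41 (SE) and 0.43 ± 0.30 (SE), and stood at -1.35 ± 0.41 (SE) and -0.65 ± 0.27 (SE) in controls.

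The summed protease level was 1722, 2008 and 2036 CPM in control hip caps and 3480, 3152 and 4224 CPM at 50 MPa, against 1248 to 1407 CPM in metatarsals at 50 MPa. A few genes weigh most in this sum: Mmp13 alone had a mean of 459 CPM in control hip caps and 1233 CPM at 50 MPa. In edgeR's test of the change 0 of 13 proteases passed, and 6 positive and 1 negative had an unadjusted p under 0.05. With library sizes alone the median of the group at 50 MPa was -0.43 in place of 0.43, beside -0.90 over all genes. Mmp3 is shown beside Mmp13 above as the other protease with an AP-1 match, at chr9:7445622-7445821 on the plus strand of GRCm38.p6 from RefSeq, with capitals on TGANTCA.
Mmp3: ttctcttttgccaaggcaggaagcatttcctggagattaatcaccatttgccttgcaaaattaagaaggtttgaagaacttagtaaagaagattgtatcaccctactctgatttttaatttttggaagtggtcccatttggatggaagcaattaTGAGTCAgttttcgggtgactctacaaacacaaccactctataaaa
These 2 were the only matches among the 9 proteases with a window (22.2%), beside 8.97% of 27025 genes.

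**Figure D4:**
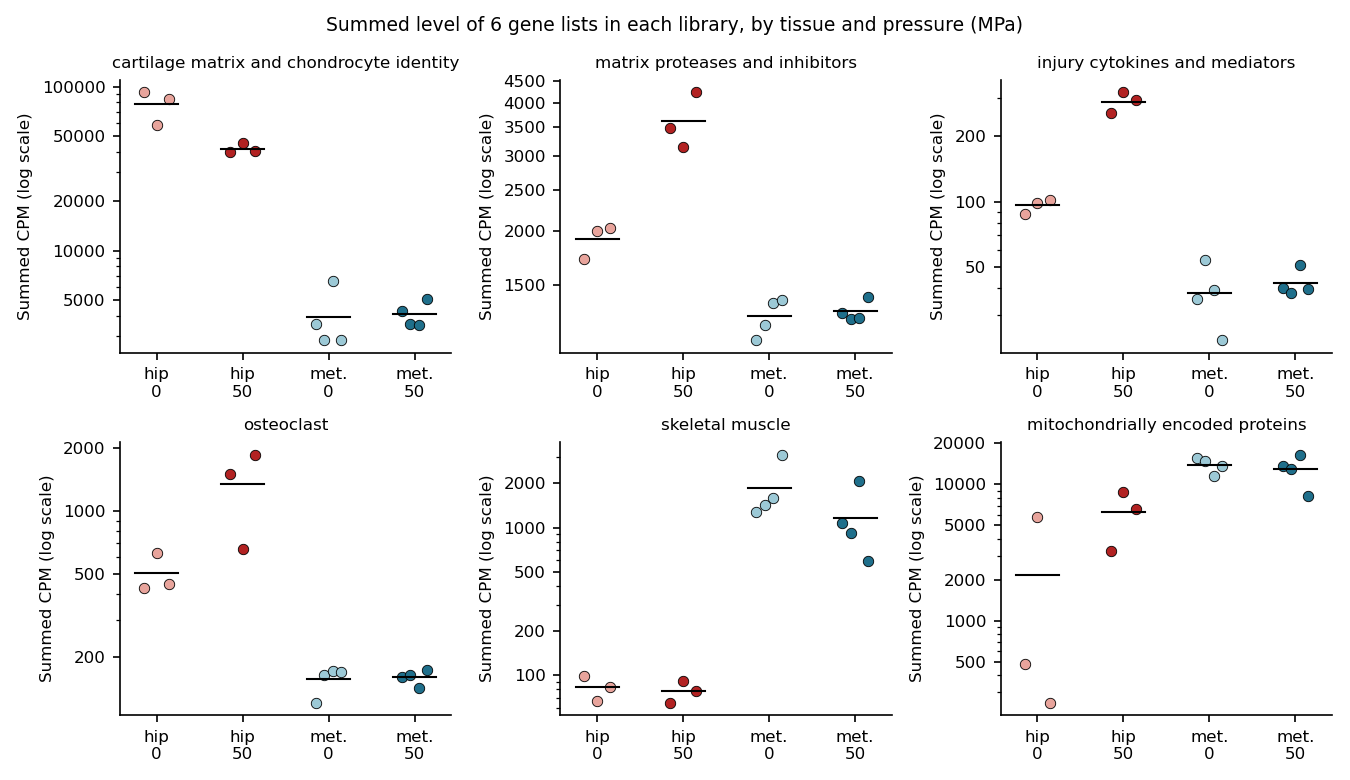
Each point is the summed CPM of 1 of 6 gene groups in 1 library, on log axes, for control and 50 MPa libraries of both tissues, and the line is the group mean. In hip caps the cartilage sum is lower at 50 MPa than in controls and the injury sum is higher. In metatarsals both sums overlap between 0 and 50 MPa. The sums are not corrected for run or library type.

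Osteoclast markers were higher in hip caps in 7 of 10 cases at 50 MPa and in 4 in controls, with medians of 2.57 and 1.44. Cathepsin K, Ctsk, which digests bone collagen, held 208, 93.7 and 189 CPM in hip caps and 27.9 to 33.3 CPM in metatarsals, a log2 fold change of 2.41 ± 0.51 (SE). The proton pump subunit Atp6v0d2 held 25.7, 12 and 21.7 CPM against 0.686 to 1.32 CPM, and the fusion receptor Dcstamp held 6.64, 1.94 and 4.33 CPM against 0.134 to 0.330 CPM. H503 was the lowest hip cap in all 3, as it was for Acp5. The summed level was 1508, 656 and 1868 CPM in H501, H503 and H504, 428 to 633 CPM in control hip caps and 141 to 172 CPM in metatarsals at 50 MPa. No member was called by edgeR in the test of the change, and 4 of 10 had an unadjusted p under 0.05, all positive. Calcr was too low to test, with at most 2 counts, and the part of osteoclasts in the values of Mmp9 and Acp5 was not tested.

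Macrophage markers were split, and neutrophil, erythroid and endothelial markers gave no calls at 50 MPa. Of 13 macrophage genes 2 were higher, the lipopolysaccharide receptor Cd14 and the growth factor receptor Csf1r, and 2 were lower, Fcgr1 and Aif1. Over all genes 10.6% were higher and 9.86% lower. Fcgr1 and Aif1 had log2 ratios of -1.82 and -1.08 for hip caps over M504, with 0.5 CPM added. Cd14 held 9.91, 19.7 and 12.4 CPM in hip caps and 1.34 to 2.18 CPM in metatarsals. The defining macrophage marker Adgre1 was not called, at 7.12 to 15.4 CPM against 5.94 to 9.13 CPM. By edgeR, none of 12 endothelial, 9 neutrophil and 5 erythroid genes tested was called at 50 MPa, with 0, 1 and 0 at an unadjusted p under 0.05. The neutrophil gene S100a8 held 2.11, 5.82 and 3.09 CPM against 0 to 0.305 CPM, with a log2 fold change of 3.48 ± 1.51 (SE), and 6 of the 11 erythroid genes were too low to test.

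Heat shock and endoplasmic reticulum stress genes were higher in hip caps in 8 of 18 cases at 50 MPa and in 6 in controls, with medians of 1.16 and 0.35. The chaperone Hspa5, which folds secreted proteins, held 415, 461 and 751 CPM in hip caps and 123 to 181 CPM in metatarsals, a log2 fold change of 1.62 ± 0.32 (SE) against 0.98 ± 0.29 (SE) in controls. Atf4, the factor of the integrated stress response, held 120, 126 and 238 CPM against 57.4 to 70.3 CPM. The inducible heat shock genes Hspa1a and Hspa1b, near-identical copies that can share reads, were not called, with hip caps at 9.28 to 40.2 CPM and 14.2 to 61.0 CPM. Without M504, 2 of the 18 passed at 50 MPa, and none did against M504 alone. With library sizes alone none passed either, and the median was 0.25, beside -0.90 over all genes.

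Cell cycle genes differed little, with 0 of 25 higher and 1, E2f1, lower at 50 MPa. The proliferation marker Mki67 held 79.6, 144 and 23.2 CPM in hip caps and 49.8 to 63.5 CPM in metatarsals, so the metatarsals lay within the range of the hip caps. The median was 0.06 at 50 MPa and 0.18 in controls. With library sizes alone it was -0.76, beside -0.90 over all genes.

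Of the 13 genes encoded in mitochondrial DNA that code for proteins, none was called by edgeR at 50 MPa, with 0 at an unadjusted p under 0.05, and 12 of 13 were lower in control hip caps, with medians of 0.15 and -3.32. Cytochrome oxidase subunit mt-Co2 held 359, 926 and 208 CPM in hip caps and 1385, 1323, 1630 and 901 CPM in metatarsals. Its log2 fold change was -0.89 ± 0.47 (SE) at 50 MPa and -3.88 ± 0.45 (SE) in controls, and the change of 2.99 ± 0.55 (SE) had an edgeR adjusted p of 0.0397. That call was lost without M504, without batch terms and with library sizes alone. The other 12 had an unadjusted p under 0.05 in the test of the change and did not pass the threshold.

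The mitochondrial values were uneven between libraries. The summed level was 483, 5739 and 252 CPM in HC1, HC2 and HC3, 3273, 8862 and 6577 CPM in H501, H503 and H504, and 13673, 13047, 16525 and 8222 CPM in M501 to M504. Every hip cap at 50 MPa but H503 lay below every metatarsal, although the median fold change at 50 MPa was above 0. That median was -0.37 against M504 alone, -1.40 without batch terms and 2.68 without M504. HC2 stood far above the other control hip caps, and without HC2 all 13 changes passed. That fit called 1090 positive and 659 negative changes over 22390 genes. The RNA of the study was of low integrity, and the part of RNA quality in these values was not tested.

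The 94 genes whose tissue difference changed with pressure divided into 67 with the smaller absolute difference at 50 MPa and 27 with the larger, and in 58 the fold changes had opposite signs. Without batch terms 3 of the 16 genes named below, Clec11a, Tmem50b and Islr, passed the edgeR test of the change. Among the 8 named with smaller differences, the growth factor Clec11a (ENSMUSG00000004473) held 94.6, 83.9 and 119 CPM in control hip caps and 43.0, 44.0 and 29.4 CPM at 50 MPa. Metatarsals held 16.7, 19.6, 28.6 and 20.8 CPM in controls and 29.5, 29.3, 22.8 and 33.0 CPM at 50 MPa. The log2 fold change between tissues was 2.29 ± 0.25 (SE) in controls and 0.32 ± 0.24 (SE) at 50 MPa, a change of -1.98 ± 0.27 (SE) with an edgeR adjusted p of 0.00374. At 50 MPa H504 lay within the range of the metatarsals.

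Synemin, Synm, an intermediate filament protein, held 47.6 to 64.7 CPM in control hip caps, 37.1, 41.2 and 35.0 CPM at 50 MPa and 11.1 to 22.2 CPM in metatarsals, and was still higher in hip caps at 50 MPa with a log2 fold change of 0.75 ± 0.19 (SE). Tmed3, a carrier of secretory cargo, held 68.2 to 88.0 CPM in control hip caps, 56.6 to 61.6 CPM at 50 MPa and 35.7, 37.2, 39.2 and 52.1 CPM in metatarsals at 50 MPa. In both genes the change came with lower hip caps and M504 above the other metatarsals. Atp13a3, a polyamine transporter, Rhoq, a small GTPase, Myef2 and Picalm, a clathrin assembly protein, were lower in hip caps in controls and not called at 50 MPa, with changes of 1.12, 1.29, 1.30 and 1.32. Picalm held 65.5, 132 and 53 CPM in control hip caps and 123, 134 and 147 CPM at 50 MPa, and HC2 lay with the hip caps at 50 MPa. Tmem50b held 1.36, 3.02 and 1.52 CPM in control hip caps and 6.33, 6.59 and 11.1 CPM at 50 MPa, with a change in the tissue difference of 2.31 ± 0.40 (SE).

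Of the 8 genes named with larger differences, Islr, a leucine-rich repeat protein of mesenchymal cells, did not differ past the threshold in controls and was lower in hip caps at 50 MPa. It held 137, 108 and 155 CPM in control hip caps, 54.6, 64.8 and 64.4 CPM in hip caps at 50 MPa and 110, 110, 109 and 143 CPM in metatarsals at 50 MPa. The log2 fold change was 0.24 ± 0.16 (SE) in controls and -1.17 ± 0.16 (SE) at 50 MPa, a change of -1.41 ± 0.18 (SE) with an edgeR adjusted p of 0.00374. Maged2 held 183, 90.1 and 196 CPM in control hip caps and 91.8, 74.9 and 83.3 CPM at 50 MPa, so HC2 again lay with the pressurised hip caps, and its log2 fold change went from 0.62 ± 0.21 (SE) to -0.80 ± 0.21 (SE). Six5, a homeobox factor, Fchsd1 and Evc, a ciliary protein of hedgehog signalling, were lower in hip caps at 50 MPa and not called in controls, with changes of -1.04, -1.18 and -1.03. The sorting nexin Snx10, which osteoclasts need to resorb bone, Resf1 and Tmbim4, an inhibitor of cell death, went the other way, with changes of 1.31, 1.16 and 1.71. Snx10 held 20.7, 27.1 and 14.5 CPM in control hip caps, 37.8, 34.2 and 31.3 CPM at 50 MPa and 16.4 to 25.1 CPM in metatarsals at 50 MPa, lowest in M504.

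**Figure D5:**
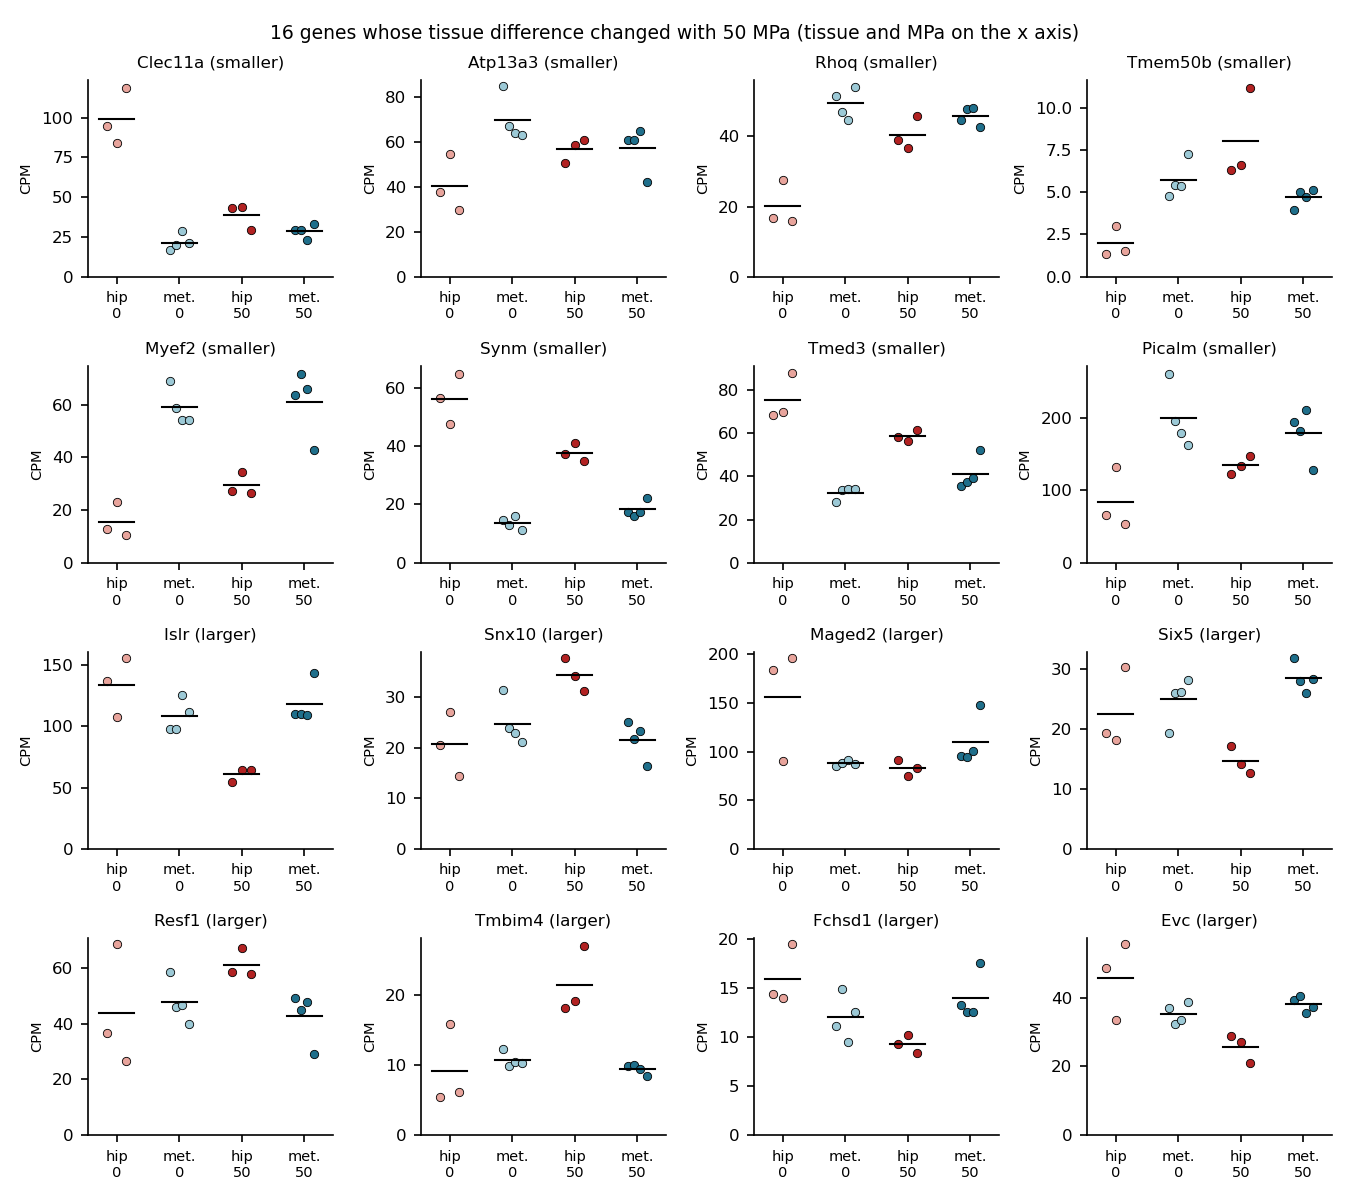
Each panel is 1 of the 16 named genes whose tissue difference changed with 50 MPa, with 1 point per library in CPM for control and pressurised hip caps and metatarsals. In Clec11a and Islr the 3 hip caps at 50 MPa lie below all 3 control hip caps, and in Picalm and Maged2 HC2 lies near the hip caps at 50 MPa.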

How the data were processed

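RNA-seq was carried out by the authors on 24 libraries, and 1 table of estimated counts for 52178 genes was deposited, made per the labels and methods with Trim Galore 0.6.5, kallisto pseudoalignment to GRCm39 and summing of transcripts to genes. A symbol was found for 48845 genes and not for 3333. Counting by strand was not stated, so antisense and overlapping genes cannot be told apart.

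Estimated counts were rounded and tested in R 4.3.3 with edgeR 4.0.16 (filterByExpr over 6 groups, TMM, robust quasi-likelihood fit, two-sided), with Benjamini-Hochberg adjustment over all genes tested and a threshold of 0.05. One fit held the 22 libraries that the study kept, without H502 and HC4, with terms for group, sequencing run and library type. Each SE is the absolute log2 fold change divided by the square root of the test's F, so it is approximate and unreliable at very low counts. Library type came from the labels, and run was read from the colour strip of a published heat map, so it is less certain, and its split of the libraries is not the one the methods give for the sequencing kits. Alternatives used limma 3.58.1 and DESeq2 1.42.0 among others. The tests were tried on simulated data first.

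Genes named were the 12 highest and 12 lowest fold changes at 50 MPa among called genes with a symbol whose libraries did not overlap and whose higher group averaged at least 10 CPM, the 8 smallest p in each direction of the change among genes averaging at least 5 CPM in 1 group, and members of the gene groups. Predicted genes, pseudogenes, small RNA genes and the sex-linked markers were passed over. The comparison and gene groups were chosen with earlier results of these data known, and counts without single libraries, without batch terms or with library sizes alone for each gene group were added after the data had been seen. Each library is a separate pool. The p-values rest on 1 spread per gene, estimated over the 22 libraries of the fit and not over the compared pools alone. The 5 MPa libraries entered that spread, although their weight in each difference was 0. Counting intervals and floors cover counting error only. Same-numbered libraries of the 2 tissues did not deviate together (correlations of -0.07 to 0.12), and the numbers were not used as pairs. Some members of the nerve and Schwann cell group are not reported here by name.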

Additional observations from a re-analysis of the deposited data

Results flagged for a closer look

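In 14 of 80 groups of 4 metatarsal libraries tested over the named genes, 1 library stood far from the other 3 by Dixon's ratio of its gap to the range. Chance gives about 1 in 20 for unselected values, but these genes were chosen on the same data, so that rate does not apply. The ratios of 1.00 for Ffar4 and Serpina1b arose because the other 3 libraries held no count. M504 was the far library at 50 MPa for Serpina1b (ratio 1.00), Col10a1 (0.893), Atp13a3 (0.849), Islr (0.952), Maged2 (0.866), Resf1 (0.8294) and Fchsd1 (0.833). Atp13a3, Islr, Maged2, Resf1 and Fchsd1 were chosen by the test of the change, in which M504 carried a weight of -0.4. Other far libraries at 50 MPa were M502 for Ffar4 (1.00) and AW551984 (0.832) and M503 for Hoxd12 (0.856). In controls they were MC3 for Ffar4 (1.00), MC1 for Ptn (0.936) and Tmed3 (0.909), and MC2 for Igfbp2 (0.877). M504 is also the only metatarsal at 50 MPa from the first run and of the unstranded type, and the part of run and library type in its place was not tested gene by gene.

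The tissue difference changed with 50 MPa by the edgeR test of the change in each of the 16 genes named for it. The changes in log2 fold change were -1.98 for Clec11a, 1.12 for Atp13a3, 1.29 for Rhoq, 2.31 for Tmem50b, 1.30 for Myef2, -1.09 for Synm, -0.88 for Tmed3 and 1.32 for Picalm, where the difference was smaller at 50 MPa. They were -1.41 for Islr, 1.31 for Snx10, -1.42 for Maged2, -1.04 for Six5, 1.16 for Resf1, 1.71 for Tmbim4, -1.18 for Fchsd1 and -1.03 for Evc, where it was larger. Without batch terms the call was lost in 13 of the 16, and Clec11a, Tmem50b and Islr kept it. When 1 library was left out, Clec11a and Islr kept it in 13 of 14 fits, and Tmed3, Picalm, Six5, Resf1, Tmbim4, Fchsd1 and Evc in 5 of 14.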

How the results depend on the processing

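None of the 12 highest and 12 lowest genes turned the sign of its fold change at 50 MPa under the alternatives run. None of the genes named for the change turned the sign of that change. Their differences at 50 MPa could turn: without batch terms Atp13a3 went from 0.35 to -0.01 and Picalm from 0.005 to -0.41. Group medians at 50 MPa turned as well. With library sizes alone they were -0.17 for proteoglycan sugar chain synthesis, -0.30 for joint surface and interzone, -0.43 for matrix proteases and inhibitors, -0.76 for cell cycle and DNA replication and -0.48 for mitochondrially encoded proteins, the last at -1.40 without batch terms and -0.47 without HC2. The medians of the endothelial, macrophage, neutrophil and erythroid groups also changed sign under at least 1 alternative. For the tissue difference at 50 MPa, with 4352 genes, the edgeR count was 7119 with library sizes alone (542 higher and 6577 lower, with a median over all genes of -0.90), 2040 with all 24 libraries, 7923 without batch terms, 2651 in the 7 libraries with 1 batch term and 576 for hip caps against M504 alone, and it ran from 1179 (without M504) to 4775 (without HC1) when 1 library was left out. For the tissue difference in controls the count of 6601 ran from 2573 (without MC1) to 7347 when 1 library was left out. The 94 genes of the change of the tissue difference with 50 MPa were the least steady: edgeR called 44 without a filter on low counts, 592 with at least 10 counts in every library, 9 without batch terms, 7 with run only and 31 with library type only. It called 0 with library sizes alone, with all 24 libraries and with only the 4 groups at 0 and 50 MPa, where 2038, 3128 and 3328 genes had an unadjusted p under 0.05. DESeq2 called 1349 and limma voom 366 (143 positive and 223 negative). Leaving out 1 library gave 3 (without HC3) to 1749 (without HC2), with 196 without HC1, 11 without H503, 630 without H504, 9, 12, 17 and 53 without MC1 to MC4, and 6, 5, 7 and 10 without M501 to M504. With a replicate block, in which the shared numbers are only labels, the counts were 4142, 6298 and 247 at 50 MPa, in controls and for the change. The cause of these shifts was not tested. The total count limits low genes, since 1 count in H504 stands for more CPM than in any other library of the comparison.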
